A study of Sus scrofa domesticus with 4 samples.

Results

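Genes that cells switch on when oxygen is short, and enzymes of glycolysis, were followed array by array in explants of pig myometrium, which is the muscular wall of the uterus. The 10 genes were DDIT4, P4HA1, VEGFA, PDK1, HIF1A, HK2, GPI, TPI1, GAPDH and LDHA, out of 3029 genes that could be named on the array and 2134 named genes bright enough to be tested. They were chosen by measured values: in earlier results of the same 4 arrays, genes of hypoxia and glycolysis lay far below 0 on array 3, and the sign of their ratio differed between arrays. Every ratio of these genes below is therefore a description, without a test, and the arrays offer no measurement that did not take part in the choice. All 29 probes whose RefSeq accession belongs to 1 of the 10 genes were included, and all 29 passed the filter on dim probes. Each of the 10 genes was well above background on 4 of 4 arrays in both the untreated and the treated RNA.

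The study asked how adiponectin, a hormone made mostly by fat tissue, changes gene expression in the myometrium of early pregnancy. Explants came from 4 mature crossbred gilts (Large White x Polish Landrace) aged 7 to 8 months, on days 15 to 16 of gestation. Slices 3 mm thick and of about 100 mg rested for 2 h in 2 ml of medium 199 at 37 °C under 95% oxygen and 5% carbon dioxide. They were then kept for 24 h under the same gas, with adiponectin at 10 µg/ml in the treated group and with nothing added in the untreated group. Each of the 4 two-colour arrays carried 1 treated and 1 untreated RNA, so 8 RNA samples were measured. Per the dye fields of the labels, arrays 1 and 3 had the treated RNA in Cy5, whereas the dyes were swapped on arrays 2 and 4. No label ties an array to a gilt or states that its RNAs came from 1 animal. Cultures were set up in duplicate, and the spread given below is that between arrays, part of which may be technical.

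In low oxygen, the enzymes that mark the transcription factor subunit HIF1A for destruction lose activity, so HIF1A protein builds up, largely without a change in its mRNA, and switches on a set of target genes. The targets raise glucose uptake and glycolysis, divert pyruvate from mitochondria to lactate, and call in new vessels through VEGFA. Several of them also answer to other signals, such as DDIT4 to glucocorticoids and VEGFA to growth factors. In uterine muscle the same program is linked to contraction, which squeezes the vessels of the wall, and to growth of the uterus in pregnancy.

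Ratios are log2 of treated over untreated signal, so that 1 means a doubling and a negative value means less in the treated RNA. They are given for the brightest probe of a gene unless other probes are named. On array 1 the 10 genes had a median of 0.71 and 9 of them lay above 0. On array 3 the median was -1.11 and 9 of 10 lay below 0. On arrays 2 and 4 the medians were -0.08 and -0.23, with 4 of 10 genes above 0 on each. Over all 2134 named genes the medians of arrays 1 to 4 were -0.03, -0.10, 0.05 and -0.02. Of these genes, 1011, 834, 1204 and 1025 lay above 0 on arrays 1 to 4. Averaged over the 4 arrays, the median of the 10 genes was -0.11, against -0.02 for all named genes. Of the 10 means 1 was above 0, that of DDIT4, which rounds to 0.00, against 974 of the 2134 named genes.

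**Figure D1:**
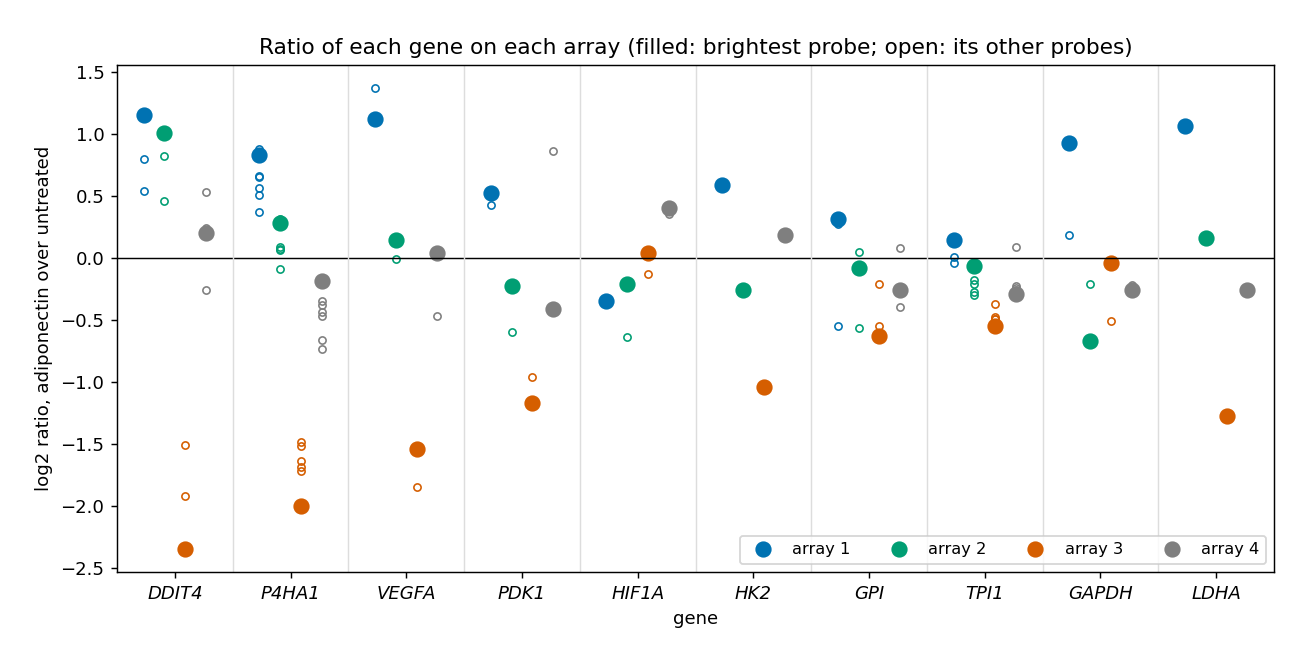
Log2 ratio of adiponectin-treated over untreated RNA (vertical axis) for each of the 10 genes (horizontal axis) on arrays 1 to 4 (colours). Filled points are the brightest probe of a gene and open points its other probes. DDIT4, P4HA1, VEGFA, PDK1, HK2 and LDHA reach from above 0.5 on array 1 to below -1 on array 3, while HIF1A runs from -0.35 to 0.40.

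DDIT4, P4HA1 and VEGFA had the widest distances between arrays 1 and 3 among the 10 genes. DDIT4, also called REDD1, is a stress-induced inhibitor of the growth kinase complex mTORC1. Its log2 ratio was 1.15 on array 1, 1.01 on array 2, -2.35 on array 3 and 0.20 on array 4. In linear terms the treated RNA held 2.21 times the untreated level on array 1 and 2.02 times on array 2, and was 5.11-fold lower on array 3. The 4 array values gave a mean of 0.00 ± 1.62 (SD, n = 4), and 3 of the 4 arrays lay over 1 log2 unit from that mean. On array 3, DDIT4 ranked 5th from the bottom of the 2134 named genes, and on array 1 it ranked 43rd from the top.

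The 4 probes of DDIT4 had the same sign on arrays 1, 2 and 3 but not on array 4. They lay between 0.54 and 1.15 on array 1, between 0.46 and 1.02 on array 2, between -2.35 and -1.51 on array 3 and between -0.26 and 0.53 on array 4, where no direction can be given. The SD between these probes on an array was at most 0.40, while the SD between the array means of the gene was 1.37. The array differences of DDIT4 were thus larger than the disagreement among its probes, which share the RNA and the hybridisation.

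P4HA1 is a catalytic subunit of the enzyme that hydroxylates prolines in collagen, a step collagen needs to fold. Its ratio stood at 0.83, 0.28, -2.0 and -0.19 on arrays 1 to 4, with a mean of -0.27 ± 1.22 (SD, n = 4). Treated RNA of array 3 held 3.99-fold less P4HA1 signal than its untreated partner, and the gene ranked 9th from the bottom there. With 7 probes it was the most densely covered of the 10 genes, and the probes spanned 0.37 to 0.88 on array 1 and -2.0 to -1.49 on array 3. On array 2 they ran from -0.09 to 0.31 and on array 4 from -0.74 to -0.19, so that all 7 were below 0 on arrays 3 and 4. The largest SD between probes on an array was 0.20, against 1.02 between the array means.

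VEGFA encodes the growth factor that drives the sprouting of blood vessels. Array 1 gave 1.12, array 2 gave 0.14, array 3 gave -1.54 and array 4 gave 0.04, with a mean of -0.06 ± 1.10 (SD, n = 4). The treated RNA was 2.17-fold higher on array 1 and 2.92-fold lower on array 3. Its other probe was further from 0 on both arrays, at 1.37 and -1.85. On array 4 the probes of VEGFA differed in sign, at 0.04 and -0.47, so no direction can be given there.

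PDK1 is a kinase that switches off pyruvate dehydrogenase and so keeps pyruvate out of the mitochondrial citric acid cycle. The ratio was 0.52, -0.23, -1.17 and -0.41 on arrays 1 to 4 (mean -0.32 ± 0.69, SD, n = 4). Array 3 again was the low one, by 2.25-fold, and array 1 alone was above 0. The other probe of PDK1 gave 0.43, -0.60, -0.96 and 0.86, which keeps the signs of arrays 1 to 3 and turns that of array 4.

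HIF1A itself, the oxygen-labile subunit, did not share the pattern. Its ratios were -0.35, -0.21, 0.04 and 0.40 on arrays 1 to 4, with a mean of -0.03 ± 0.33 (SD, n = 4). On array 3, where DDIT4, P4HA1 and VEGFA were far down, HIF1A mRNA lay in the middle of the named genes, at rank 1023 from the bottom. Its other probe stood at -0.35, -0.64, -0.13 and 0.35. The protein, which carries the oxygen response, was not measured.

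Among the glycolytic enzymes, LDHA had the widest distance between arrays 1 and 3. It turns pyruvate into lactate and regenerates the NAD that glycolysis consumes. LDHA was measured by 1 probe, with ratios of 1.06, 0.16, -1.28 and -0.26 on arrays 1 to 4 and a mean of -0.08 ± 0.97 (SD, n = 4). In linear terms LDHA was 2.08-fold higher in the treated RNA of array 1 and 2.42-fold lower in that of array 3.

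HK2, the inducible hexokinase that traps glucose in the cell, gave 0.59, -0.26, -1.04 and 0.18 (mean -0.13 ± 0.70, SD, n = 4), also from 1 probe. It was 1.51-fold higher on array 1 and 2.06-fold lower on array 3. GPI, which converts glucose 6-phosphate into fructose 6-phosphate, ran at 0.31, -0.08, -0.63 and -0.26 (mean -0.16 ± 0.39, SD, n = 4). Of its 3 probes, 1 departed from the others, at -0.55, -0.57, -0.21 and 0.08. For GPI the SD between probes reached 0.49 on an array and exceeded the 0.19 between array means, so that its array differences cannot be told from probe disagreement.

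TPI1, the isomerase that brings both products of the aldolase step into the lower pathway, showed the narrowest range among the enzymes. Its ratios were 0.14, -0.07, -0.55 and -0.29, with a mean of -0.19 ± 0.30 (SD, n = 4). All 5 probes were low on array 3, between -0.55 and -0.37, and they lay between -0.04 and 0.16 on array 1. The SD between the probes of TPI1 was at most 0.16, against 0.23 between array means.

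GAPDH, which oxidises glyceraldehyde 3-phosphate and often serves as a reference transcript, broke the pattern in another way. Its brightest probe gave 0.93, -0.67, -0.04 and -0.26 (mean -0.01 ± 0.68, SD, n = 4), so array 2 and not array 3 was the lowest. Before the signs of the dye-swapped arrays were turned, this probe read 0.93, 0.67, -0.04 and 0.26 as Cy5 over Cy3, above 0 on 3 of 4 arrays; the part of the dye was not tested. The other GAPDH probe gave 0.18, -0.21, -0.51 and -0.22, with array 3 lowest. Mammalian genomes hold many near-identical copies of GAPDH, and signal from them cannot be told apart on these arrays, so the gene is uncertain.

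By size, the distance between array 1 and array 3 was 3.5 log2 units for DDIT4, 2.82 for P4HA1, 2.66 for VEGFA and 2.34 for LDHA. It was 1.69 for PDK1, 1.64 for HK2, 0.97 for GAPDH, 0.94 for GPI and 0.70 for TPI1, and -0.39 for HIF1A. These 2 arrays shared a slide, a scan and the dye orientation, and the labels agree on their direction. Between arrays 2 and 4, which had treated RNA in Cy3 and lay on different slides, the same distances ran from -0.61 for HIF1A to 0.81 for DDIT4. As a group, the hypoxia-induced DDIT4, P4HA1, VEGFA and PDK1 had medians of 0.97, 0.21, -1.77 and -0.08 on arrays 1 to 4. The enzymes HK2, GPI, TPI1, GAPDH and LDHA had medians of 0.59, -0.08, -0.63 and -0.26.

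**Figure D2:**
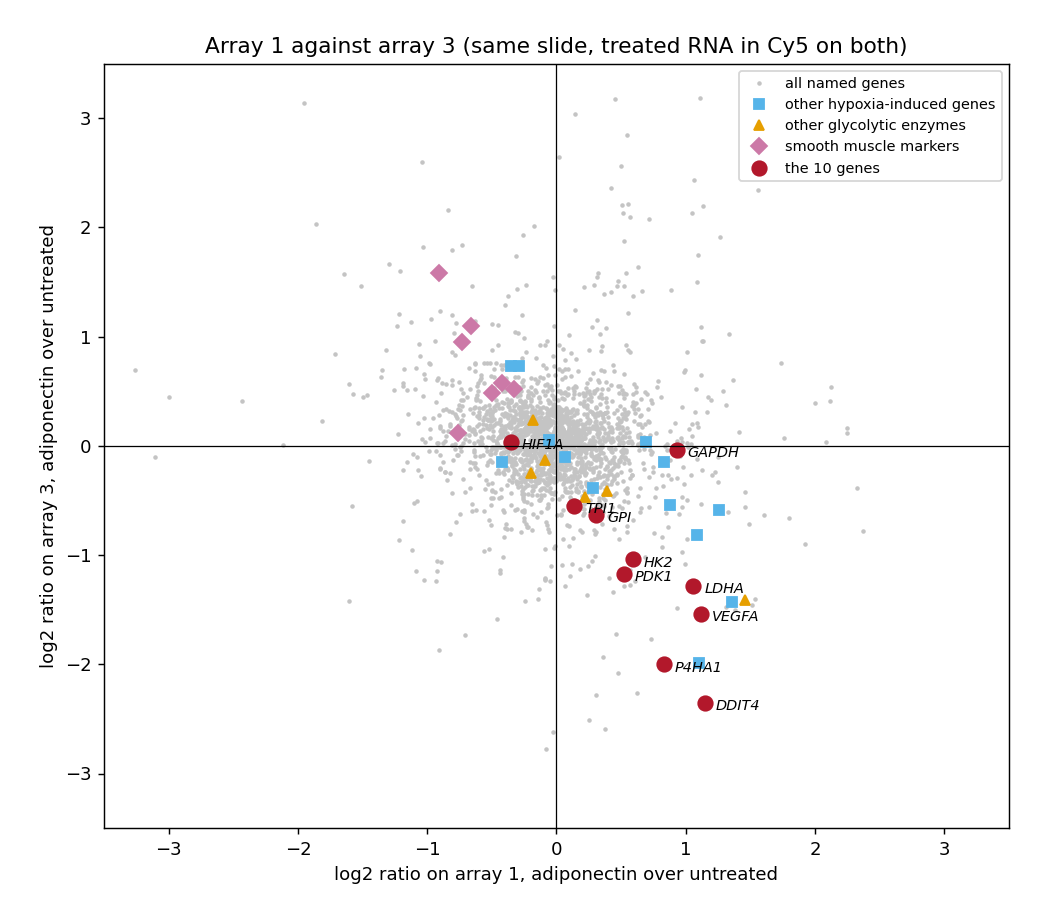
Log2 ratio of treated over untreated RNA on array 1 (horizontal axis) against array 3 (vertical axis), 1 point per named gene, for 2134 genes of which 1 lies outside the axes. Large red points are the 10 genes, and squares, triangles and diamonds mark other hypoxia-induced genes, other glycolytic enzymes and smooth muscle markers. All of the 10 genes except HIF1A lie at the lower right, above 0 on array 1 and below 0 on array 3, from TPI1 (0.14 and -0.55) to DDIT4 (1.15 and -2.35).

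Counts past a 1.5-fold difference on single arrays are set here beside the share of all named genes past the same fold; because these ratios chose the genes, nothing is read from the counts. On array 1, 6 of the 10 genes were higher by over 1.5-fold (DDIT4, P4HA1, VEGFA, HK2, GAPDH and LDHA), where 8.62% of named genes were, and 0 were lower, where 9.93% were. On array 2, 1 was higher (DDIT4) against 6.51% of named genes, and 1 was lower (GAPDH) against 9.98%. On array 3, 0 were higher against 8.72% of named genes, and 7 were lower against 6.89%, namely DDIT4, P4HA1, VEGFA, PDK1, HK2, GPI and LDHA. On array 4, 0 were higher and 0 lower, against 6.94% and 6.09%. Some of these calls depend on the processing. On array 1, HK2 was at 0.21 after normexp and loess and at 0.58 with each array centred on its median, and GAPDH at 0.55 as the mean of its probes, each short of the 1.5-fold limit and leaving 5 genes. On array 3, GPI was at -0.46 as the mean of its probes, which left 6 genes, and on array 2 GAPDH was at -0.44 on that measure and fell short too. Past a 2-fold difference, 3 of the 10 were higher on array 1 and 6 were lower on array 3.

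Across the 4 arrays limma, with a treatment term and a dye term, called none of the probes of these genes, and 0 of all 22129 probes tested, which is 0% (Benjamini-Hochberg adjusted p under 0.05). The smallest adjusted p was 0.856, and at an unadjusted p under 0.05 limma counted 838 probes higher and 425 lower. Without array 3 it called 12 probes, all higher in treated RNA, with a smallest adjusted p of 0.0198, and none of them belonged to the 10 genes. Leaving out array 3 also turned the mean ratio of P4HA1 from -0.27 to 0.31, of VEGFA from -0.06 to 0.43, of HK2 from -0.13 to 0.17 and of LDHA from -0.08 to 0.32, and moved that of DDIT4 to 0.79. Leaving out array 1 moved them the other way, to -0.64, -0.46, -0.38 and -0.46, with DDIT4 at -0.38.

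The level of each gene in each of the 8 RNAs shows which side of a ratio moved. Levels are log2 of the processed signal minus the median of the tested probes in the same dye of the same array, and they are compared only within a gene. DDIT4 stood at 4.44, 5.96, 6.44 and 4.58 in the untreated RNAs of arrays 1 to 4 and at 5.58, 6.97, 4.08 and 4.79 in the treated RNAs. Untreated explants alone thus spanned 2.00 log2 units, or 4.01-fold, and treated explants 2.89 units, or 7.41-fold. The untreated span lay within Cy3. The treated span set array 2 in Cy3 against array 3 in Cy5, so it also holds any dye offset of the probe. The means were 5.35 ± 1.00 untreated and 5.35 ± 1.24 treated (SD, n = 4 each), and the groups overlapped. Each of these SDs also spans both dyes. In bulk tissue, fewer cells of a type and less RNA per cell cannot be told apart.

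On arrays 1 and 3 the untreated RNAs were both in Cy3 and the treated RNAs both in Cy5, so each side can be compared within its dye. The untreated level of DDIT4 was 2.00 higher on array 3 than on array 1, and its treated level was 1.5 lower, which together make up the 3.5 between the ratios. For P4HA1 the untreated level was 1.23 higher on array 3 and the treated level lower, with a difference of -1.59. VEGFA differed by 1.84 on the untreated side and -0.81 on the treated side, LDHA by 1.32 and -1.01, PDK1 by 1.04 and -0.64, and HK2 by 0.77 and -0.86. Both sides thus contributed for these 6 genes, the untreated RNA of array 3 being high and the treated RNA low relative to array 1.

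The remaining genes split differently. For TPI1 the untreated levels of arrays 1 and 3 were within 0.05 of each other (a difference of -0.05), and the treated side held the gap, at -0.74. For GPI the untreated side held most of it, at 0.73 against -0.20. GAPDH was higher on array 3 on both sides, by 1.28 and 0.31, and HIF1A differed by -0.10 and 0.29. Over the 10 genes the median difference was 1.14 untreated and -0.78 treated, whereas over all named genes it was -0.11 and -0.01.

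**Figure D3:**
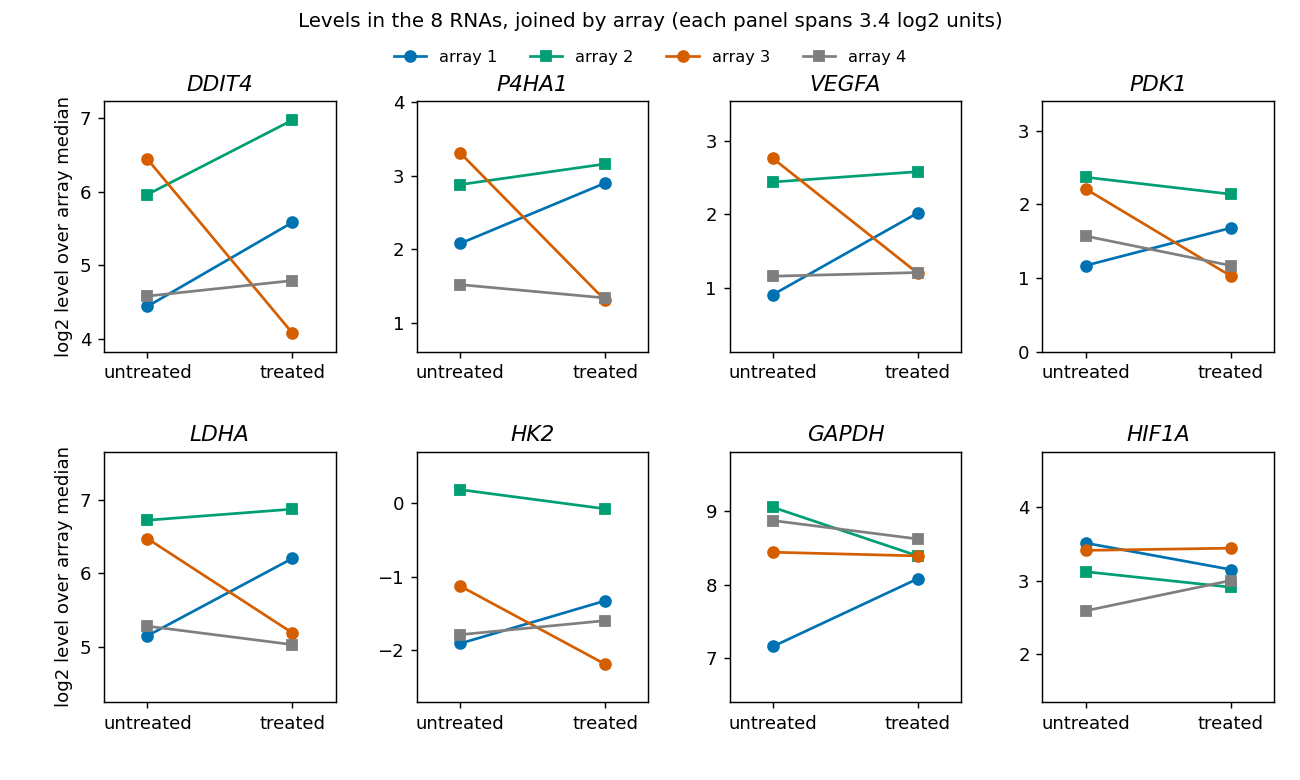
Level of 8 of the 10 genes (log2 signal over the median of the tested probes in that dye and array, vertical axis) in untreated and treated RNA (horizontal axis), with the RNAs of an array joined. Circles are arrays with treated RNA in Cy5 and squares arrays with treated RNA in Cy3, and each panel spans the same number of log2 units. Lines of arrays 1 and 3 cross for DDIT4, P4HA1, VEGFA, PDK1, LDHA and HK2, with DDIT4 going from 4.44 to 5.58 on array 1 and from 6.44 to 4.08 on array 3, and those of HIF1A cross in the other direction.

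Untreated explants also differed among themselves. P4HA1 stood at 2.08, 2.88, 3.31 and 1.52 in the untreated RNAs and at 2.90, 3.16, 1.31 and 1.34 in the treated RNAs of arrays 1 to 4. VEGFA was at 0.91, 2.44, 2.76 and 1.16 untreated and at 2.02, 2.58, 1.20 and 1.21 treated. In both genes the untreated RNAs of arrays 2 and 3 were the high ones, and among treated RNAs those of arrays 1 and 2.

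PDK1 was at 1.17, 2.37, 2.21 and 1.57 untreated and at 1.68, 2.14, 1.03 and 1.17 treated. LDHA was at 5.15, 6.72, 6.47 and 5.28 untreated and at 6.20, 6.87, 5.19 and 5.03 treated. Here too arrays 2 and 3 were high among untreated RNAs and arrays 1 and 2 among treated RNAs. Untreated RNA of arrays 2 and 4 was in Cy5 and that of arrays 1 and 3 in Cy3, so levels set across these pairs also hold any dye offset of the probe.

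HK2 was at -1.91, 0.18, -1.13 and -1.79 untreated and at -1.33, -0.08, -2.19 and -1.60 treated, so array 2 was high on both sides. GPI was at 5.89, 6.31, 6.62 and 6.0 untreated and at 6.19, 6.23, 5.98 and 5.75 treated. TPI1 was at 4.15, 4.66, 4.10 and 3.32 untreated and at 4.28, 4.59, 3.54 and 3.04 treated. For TPI1 array 4 was the lowest and array 2 the highest on both sides, and the 8 RNAs of GPI lay within 0.87 log2 units.

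GAPDH was at 7.16, 9.05, 8.44 and 8.87 untreated and at 8.08, 8.39, 8.39 and 8.62 treated. The untreated RNA of array 1 was the low one, and the untreated RNAs spanned 3.72-fold against 1.46-fold for the treated RNAs. The span of 1.90 log2 units behind the first of these sets array 1 in Cy3 against array 2 in Cy5, and within Cy3 the gap between arrays 1 and 3 was 1.28. The other GAPDH probe varied less, at 7.34, 8.38, 8.13 and 7.68 in the untreated RNAs. HIF1A was at 3.51, 3.12, 3.41 and 2.59 untreated and at 3.15, 2.91, 3.44 and 3.00 treated, a span of 0.92 over the 8 RNAs.

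The median span of the 10 genes over the untreated RNAs was 1.68 log2 units, and over the treated RNAs 1.46, against 1.00 and 0.81 for all named genes. Among the 4 untreated RNAs that of array 3 was the highest for 4 of the 10 genes (DDIT4, P4HA1, VEGFA and GPI), where it was the highest for 11.3% of named genes. Among the 4 treated RNAs that of array 3 was the lowest for 5 (DDIT4, P4HA1, VEGFA, PDK1 and HK2), where it was the lowest for 19% of named genes. DDIT4, P4HA1 and VEGFA, 3 of the 10, were in both counts. These shares use the arrays that chose the genes and are given as description.

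Other genes known to be induced by hypoxia were mixed. Of 42 listed, 16 were named on the array and 13 were tested, with medians of 0.69, -0.05, -0.15 and 0.07 on arrays 1 to 4. On array 1, 7 of the 13 were higher by over 1.5-fold and 0 lower, where 8.62% and 9.93% of named genes were. On array 3, 2 were higher and 4 lower, where 8.72% and 6.89% of named genes were. ERO1A, an oxidase that forms disulfide bonds in the endoplasmic reticulum, had ratios close to those of P4HA1 by its brightest probe, at 1.10, 0.15, -1.99 and -0.33. Its 2 probes differed in sign on array 4, at -0.33 and 0.33, so no direction can be given there. On array 2 they were at 0.15 and 0.61. ADM, a vessel-relaxing peptide, gave 1.09, 0.37, -0.82 and 0.07. Both were named because they were among the genes with the widest gap between arrays 1 and 3 in the list, and limma called 0 of the 13.

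The other glycolytic enzymes were less uniform. Of 18 listed, 7 were named on the array and 6 tested, with medians of 0.06, 0.03, -0.33 and -0.09. ALDOC, an aldolase isoform, stood apart at 1.46, 0.49, -1.41 and -0.42, with 1 probe. PGK1, which makes ATP in the lower pathway, was at 0.39, -0.05, -0.41 and 0.01, and HK1, the constitutive hexokinase, at 0.22, 0.17, -0.47 and -0.06. On array 3, 5 of the 6 lay below 0, as did 930 of the 2134 named genes. There 1 of the 6 was lower by over 1.5-fold, against 6.89% of named genes.

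Enzymes that oxidise pyruvate and run the citric acid cycle had medians of -0.17, 0.00, 0.20 and -0.20 over 11 tested of 27 listed genes. Of the 11, 9 lay below 0 on array 1 and 10 above 0 on array 3, where 1123 and 1204 of the 2134 named genes did. PDK4, a kinase that inhibits pyruvate dehydrogenase as PDK1 does, had ratios of 1.54, -0.31, -1.40 and -0.38. It was the only one of the 11 below 0 on array 3. On array 1 it lay above 0 together with CS, another gene of the list (0.11). SUCLG1, a subunit of succinyl-CoA synthetase, gave -0.67, -0.35, 0.10 and -0.22. PDK4 and both probes of PDK1 had the same signs on arrays 1 to 3, while on array 4 the PDK1 probes differed in sign, and SUCLG1 had the opposite sign on arrays 1 and 3.

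Among the regulators of HIF, 2 of 15 listed genes were tested. EPAS1, the second oxygen-labile HIF subunit, gave -0.32, 0.11, 0.02 and 0.00. HSP90AA1, a chaperone that holds HIF1A before it is degraded, was at 0.28, 0.45, -1.06 and 0.96 by its brightest probe. Its 6 probes differed in sign on every array, from -1.06 to 0.07 on array 3 and from -0.25 to 0.96 on array 4. No direction can be given for it. No listed VEGF receptor or relative (0 of 9) and no listed gene of the mTORC1 pathway near DDIT4 (0 of 13) was matched by name here. Of genes around collagen hydroxylation 2 of 8 were tested, COL1A2 at 0.51, -0.28, -0.06 and -0.23 and the collagen chaperone SERPINH1 at -0.38, -0.25, 0.19 and -0.14.

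Signals other than oxygen that act on DDIT4 were covered thinly. Of 11 listed targets of glucocorticoids and of the stress factor ATF4, 4 were tested, with medians of 0.17, -0.05, 0.14 and -0.17. ATF4 itself was at 0.31, 0.01, -0.68 and 0.12 by its brightest probe. Its 6 probes differed in sign on every array, from -0.48 to 0.31 on array 1 and from -0.68 to 0.16 on array 3. KLF9, a glucocorticoid-induced factor, was at -0.37, -0.27, 0.37 and -0.16, and VLDLR at 0.02, -0.08, -0.10 and -0.35. Of 14 immediate early genes 4 were tested, with medians of 0.25, -0.19, -0.63 and -0.22. Among these, BTG2 was at 0.12, 0.22, -1.08 and -0.35, JUN at 0.19, -0.79, -0.79 and 0.27, and MYC at 0.76, -0.19, -0.47 and -0.09.

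**Figure D4:**
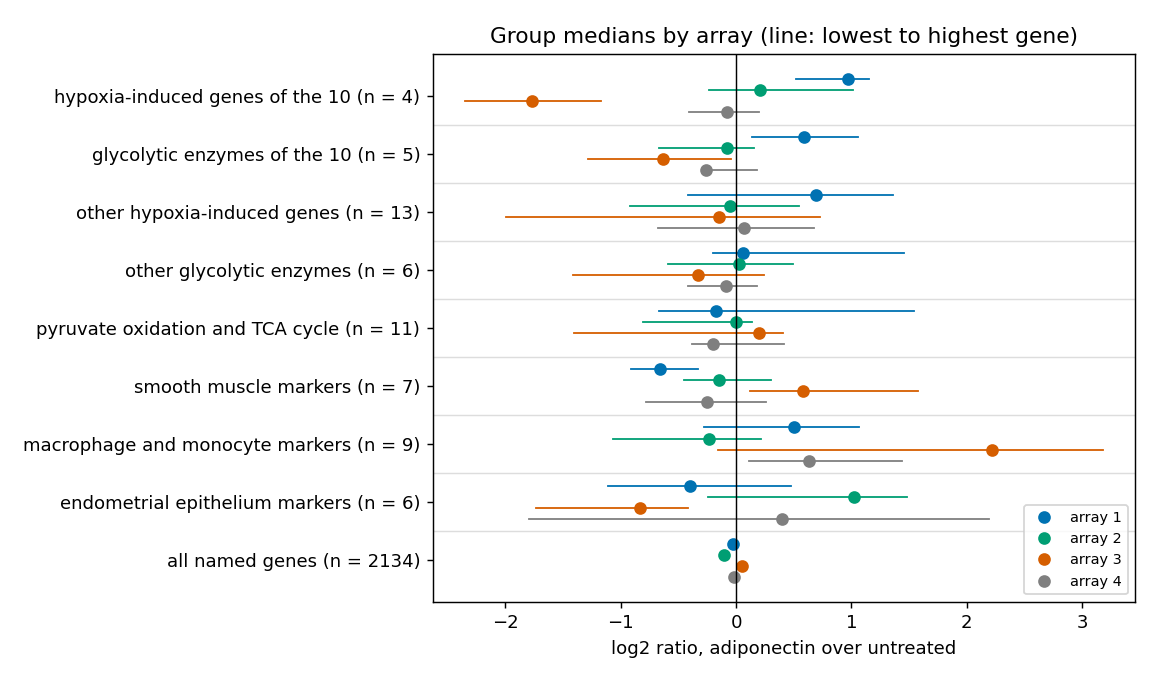
Median log2 ratio of treated over untreated RNA (horizontal axis) of each gene group on arrays 1 to 4 (colours), with lines from the lowest to the highest gene of the group (no line for all named genes). The hypoxia-induced members lie at 0.97 on array 1 and -1.77 on array 3, smooth muscle markers at -0.66 and 0.58, and macrophage and monocyte markers at 2.22 on array 3.

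Medians of cell type markers also differed between arrays, and the types did not share 1 pattern. Smooth muscle markers, 7 tested of 12 listed and all well above background in all 8 RNAs, had medians of -0.66, -0.15, 0.58 and -0.25, opposite in sign to the median of the 10 genes on arrays 1 and 3. Smooth muscle actin ACTA2 gave -0.91, -0.01, 1.58 and -0.25, desmin (DES) -0.66, -0.10, 1.10 and 0.10, and the myosin kinase MYLK -0.73, 0.30, 0.95 and -0.37. Their summed level, in multiples of the array median, was 809.6 to 1828 over the untreated RNAs and 834.2 to 1602 over the treated RNAs. Over the untreated RNAs of arrays 1 to 4 the sums were 1305, 1511, 809.6 and 1828, and over the treated RNAs 834.2, 1340, 1455 and 1602. Of the untreated RNAs high in DDIT4, P4HA1 and VEGFA, that of array 3 thus had the lowest sum of the 4. That of array 2 was above that of array 1, which was low in these genes. Of the treated RNAs, those of arrays 1 and 2, high in these genes, had lower sums than those of arrays 3 and 4. On each side arrays 1 and 3 differ in dye from arrays 2 and 4, so sums set across these pairs also hold any dye offset.

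Macrophage and monocyte markers, 9 tested of 13, had medians of 0.50, -0.23, 2.22 and 0.63, with sums of 17.5 to 25.9 untreated and 16.6 to 38.4 treated. The complement genes C1QC and C1QB stood at 3.18 and 2.56 on array 3, and the mannose receptor MRC1 at 2.36. Unlike the 10 genes, these markers were above 0 by their median on arrays 1 and 3 alike. Endometrial epithelium markers, 6 tested of 12, had medians of -0.40, 1.02, -0.83 and 0.40 with sums of 1.25 to 9.99 untreated and 0.979 to 23.1 treated. Of these 6, only 4 were well above background in all untreated RNAs and 4 in all treated RNAs, so part of these ratios lay near the floor.

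Endothelial markers, 5 tested of 10, had medians of 0.00, -0.29, 0.07 and 0.47 with sums of 19.7 to 36.5 untreated and 19.6 to 31.8 treated. Connective tissue markers, 5 tested of 10, had medians of 0.47, -0.12, -0.34 and 0.10 with sums of 98.3 to 213.6 and 109.0 to 194.0. Of these 5, 3 were well above background in all untreated RNAs and 4 in all treated RNAs. Neutrophil markers, 5 tested of 8, had medians of 0.42, -0.34, -0.29 and 0.36 with sums of 3.35 to 13.7 and 4.36 to 16.1. Of these 5, 4 were well above background in all untreated RNAs and 4 in all treated RNAs. Of 8 erythrocyte markers 1 was named and 0 tested. The part of the cell makeup of the slices in the ratios of the 10 genes was not tested.

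Outside the 10 genes, the named genes nearest to their median profile were found by root mean square distance over the 4 array ratios. The search covered 2124 genes, those of the lists above included, whose median distance was 0.77. None of the listed genes was among the 8 nearest. The 8 nearest were ASCL2 (distance 0.19), SSTR1 (0.20), SPEF2 (0.21), SCD (0.22), PMAIP1 (0.22), AGXT2 (0.24), SLC2A4 (0.24) and NDUFA4L2 (0.25). The nearest, ASCL2, gave 0.69, 0.10, -1.02 and 0.09 on arrays 1 to 4. SSTR1 gave 0.57, 0.23, -1.14 and -0.42, and SPEF2 0.57, 0.28, -1.27 and -0.13. PMAIP1 was at 0.30, 0.05, -1.01 and -0.18, and AGXT2 at 0.24, -0.17, -1.10 and -0.24. The farthest of the 8, NDUFA4L2, a mitochondrial protein and known HIF target that lowers respiration, gave 0.82, -0.16, -0.84 and -0.63. SLC2A4, the insulin-regulated glucose transporter GLUT4, gave 0.86, -0.23, -0.75 and 0.02, and SCD, which desaturates fatty acids, 0.55, 0.15, -0.79 and -0.12. Of the 10 genes, PDK1 lay closest to their median profile (0.16), followed by HK2 and LDHA (0.23 each), GPI (0.31), VEGFA (0.34), TPI1 (0.40) and P4HA1 (0.48). GAPDH (0.62), HIF1A (0.84) and DDIT4 (0.88) were farthest, HIF1A for its different signs and DDIT4 for its size and its high ratio on array 2.

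As to the quality of the arrays, 46.1% to 51.0% of their spots exceeded background clearly in Cy3 and 54.9% to 63.1% in Cy5, and no spot was saturated. Over all tested probes the ratios of arrays 1 and 3 correlated at -0.05, those of arrays 2 and 3 at -0.31 and those of arrays 2 and 4 at 0.25. Taking the dye protocol's wording, with treated RNA in Cy5 on every array, would turn arrays 2 and 4, where the median of the 10 genes then becomes 0.08 and 0.23, and leaves arrays 1 and 3 as they are. It would put the mean ratio of DDIT4 at -0.60 and that of GAPDH at 0.46.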

How the data were processed

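The 4 arrays used had 2 colours, each with 1 treated and 1 untreated RNA. The deposited scanner files hold log10 ratios of Cy5 over Cy3 and processed signal intensity per dye, background-subtracted and dye-normalised by Agilent Feature Extraction 10.7.3.1, per the file headers. The deposited flags for background and saturation were used as given. The log10 ratio was divided by log10 of 2 and its sign turned on the arrays with treated RNA in Cy3. That ratio was exactly 0 in 18.1% to 28.9% of the spots of an array, which are not used where dim. The deposited series table holds log2 values; set against the scanner ratios of bright probes its slopes were 1, -1, 1 and -1, with 100% within 0.01 after turning, so its scale and direction are log2 of treated over untreated. Its column medians were -0.10, 0.13, -0.14 and 0.16, and how its dim probes were made is not given in the sources used here. Array 4 came from slide 2, and the other arrays from slide 1 with a common scan.

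Control spots (1417 per array) were left out, and spots of a probe averaged. A probe was tested when its treated or its untreated RNA was marked well above background on 3 or more of the 4 arrays and no array lacked a value (22129 of 43603 probes). RefSeq accessions gave 6700 probes 1 of 3029 symbols through a table of Sscrofa11.1, used for names only, and the probe of highest mean signal stood for a gene. No probe sequence or coordinate was used here. Ratios were fitted with limma 3.58.1 (R 4.3.3; treatment and dye terms, eBayes, two-sided, Benjamini-Hochberg, threshold 0.05), tested on simulated data. The precision is limited by the number of arrays. The 10 genes and all lists were chosen with earlier results of these data known. All 10 genes are named with every probe, for each list the 3 tested genes with the widest gap between arrays 1 and 3, and the 8 nearest genes by profile; 2 results that the rule also gave are not reported here. Alternatives were array omission, no dye term, centring, no filter, the series table, normexp with loess (offset 50), the mean of all probes, a 2-fold limit, and, chosen after seeing the data, treated RNA in Cy5 throughout.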

Additional observations from a re-analysis of the deposited data

Results flagged for a closer look

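In 75 sets of 4 array values, 3 had 1 array far from the others by Dixon's criterion. For sets chosen without regard to their values, chance alone gives about 1 in 20, or 3.75 sets. These sets were chosen by values of the same arrays, and probes of a gene share the RNA, so nothing is read from the count. The DDIT4 probe with the narrowest range had a log2 ratio of -1.51 on array 3, while the other arrays gave 0.46 to 0.54. SFRP4, a connective tissue gene, was at 0.82 on array 1, and its other array values were -1.14 to -0.81. THY1, a surface marker of fibroblasts, was at -1.23 on array 1, and its other values were 0.11 to 0.37.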

How the results depend on the processing

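The count of probes called by limma was 0 in the fit reported and ran from 0 to 12 when 1 array was left out, the 12 being without array 3; the cause was not tested. Without array 4, the remaining arrays share a slide, so that fit is also the one within slide 1. Omitting arrays 1, 2, 3 and 4 in turn gave medians of the 10 gene means of -0.38, -0.18, 0.09 and -0.15. By array it was 0.58, -0.06, -0.87 and -0.07 after normexp and loess, and 0.57, -0.21, -1.05 and -0.19 with the mean of all probes. The 60 gene means under 6 other settings all moved by less than 1 SD between arrays, an SD that is wide for these genes. Among these settings, no filter and the series table left the values of the 10 genes as they were, so they could not move a mean. Omission of 1 of 4 arrays can never move a mean by 1 SD of those arrays. That the 40 means under omission stayed within it was thus fixed in advance and says nothing about stability. Signs of gene means turned for 5 genes without array 3 (P4HA1, VEGFA, HK2, GAPDH and LDHA) and for 2 (DDIT4, GAPDH) after normexp and loess. Without array 1 they turned for DDIT4 and HIF1A, without array 2 for DDIT4, HIF1A and GAPDH, and without array 4 for DDIT4 and GAPDH. The mean of all probes turned DDIT4, and treated RNA taken as Cy5 throughout turned DDIT4, GPI and GAPDH. With the dye fields' direction kept, single ratios moved most for PDK1 on array 4, from -0.41 to 0.22 with the mean of all probes. Moves of 0.38 followed for HK2 on array 1 (0.59 to 0.21) and array 3 (-1.04 to -0.66) and VEGFA on array 1 (1.12 to 0.74) after normexp and loess, and for GAPDH on array 1 (0.93 to 0.55 with the mean of probes, 1.31 after normexp). Treated RNA taken as Cy5 throughout turns the sign of every ratio on arrays 2 and 4. No paired analysis was possible because the arrays form a single group in which each ratio already sets a treated against an untreated RNA. With 4 arrays, small shared changes could not be detected.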
